A study of Danio rerio with 6 samples.

Results

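The 10 genes examined here encode proteins that the liver makes, most of them for the blood plasma: the fibrinogen chains *fga*, *fgb* and *fgg*, prothrombin (*f2*), plasminogen (*plg*), antithrombin (*serpinc1*), heparin cofactor II (*serpind1*), transferrin-a (*tfa*), ceruloplasmin (*cp*) and the liver fatty acid binding protein *fabp10a*. They were chosen by name, and all 10 symbols were found, each once, among the 37898 genes of the count table. Of these, 9 had enough counts for a test, and *serpinc1* was listed at 0 in every library. RNA was sequenced from whole zebrafish embryos at 4 days post fertilization (dpf). The mutants were *sart3*-/- (3 libraries) and carried *smu471*, a nonsense point mutation in a gene for a spliceosome factor, and the controls were their wild-type (WT) siblings from *sart3*+/- intercrosses (3 libraries). High-resolution melting, which reads the genotype from the melting curve of a PCR product, was used for genotyping in the paper. Its methods for RNA sequencing do not say how these embryos were sorted. No transgene or treatment is named for either group. The number of embryos behind a library is not given in the sources used here, so the p-values measure the spread between these libraries.

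Hepatocytes secrete most of the proteins of the plasma. In the clotting cascade, thrombin cut from prothrombin turns fibrinogen, a protein built of the products of *fga*, *fgb* and *fgg*, into fibrin, while antithrombin and heparin cofactor II block thrombin and plasmin cut from plasminogen dissolves the clot. Transferrin carries iron, ceruloplasmin carries copper and oxidizes iron, and Fabp10a stays inside the hepatocyte, where it binds bile acids and fatty acids. In zebrafish the liver is working by 4 dpf, and the yolk syncytial layer, a tissue around the yolk, also makes apolipoproteins and some other plasma proteins.

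The libraries held between 16008788 and 18310233 counts on genes, and TMM scaling factors lay between 0.975 and 1.01. Libraries of the same group differed by more than sampling noise (chi-square of 4.30 to 12.9 for each degree of freedom), so each was counted as 1 replicate. Levels are given as CPM (counts scaled by TMM-adjusted library size) for comparisons between groups, and as the deposited FPKM, which also divides by gene length, for comparisons between genes. edgeR's quasi-likelihood test was fitted to all 24809 genes with enough counts, a gene was called at a Benjamini-Hochberg adjusted p under 0.05, and the median log2 fold change of all these genes was 0.01. The mutated gene itself had 53.4, 48.1 and 49.3 CPM in mutants, against 66.1, 68.8 and 70.2 CPM in siblings. *sart3* was thus lower in every mutant library, with a log2 fold change of -0.44 (SE 0.07, edgeR adjusted p = 0.0023).

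Of the 9 genes tested, *fabp10a* changed most, with a 6.65-fold fall, and 7 were not called in either direction. edgeR called 2 of the 9 genes lower, *fabp10a* and *plg*, and 0 higher. Over all genes tested, 14.3% were called lower and 13.6% higher, or 27.9% in either direction, so 2 calls among 9 genes are near the share of the whole table. Their median log2 fold change was -0.06. The same 2 genes were also those in which every mutant library lay below every sibling library, against 22.3% of all genes tested below and 45.2% apart in either direction. In bulk RNA from whole embryos, fewer hepatocytes and less RNA per hepatocyte cannot be told apart.

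**Figure D1:**
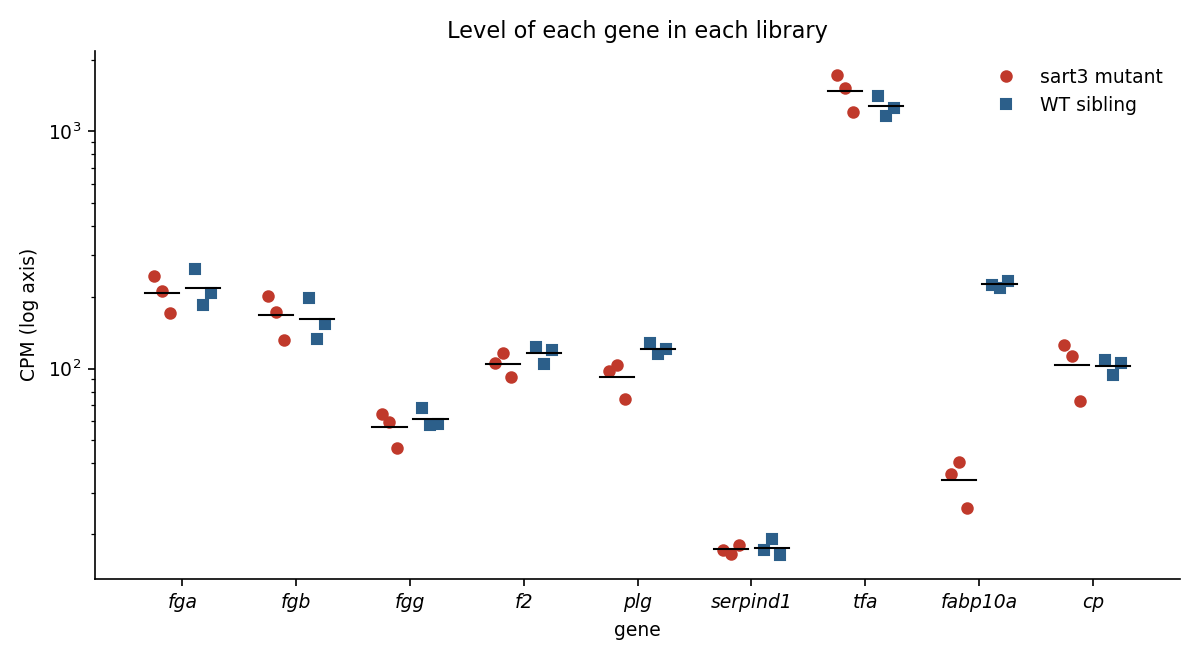
CPM of the 9 genes with counts (log axis), with 3 mutant libraries as circles on the left and 3 sibling libraries as squares on the right of each gene, in the order of their replicate numbers, and the group mean as a bar. The groups are apart for *fabp10a*, at 25.9 to 40.3 CPM in mutants and 219 to 235 CPM in siblings, and for *plg*, and they overlap for the other 7 genes.

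*fga*, for the alpha chain of fibrinogen (ENSDARG00000020741, GRCz11 chromosome 1, 10063501 to 10071539, minus strand), had 245, 212 and 171 CPM in mutants, against 262, 185 and 208 CPM in siblings. *fgb*, for the beta chain (ENSDARG00000008969, chromosome 1, 10051763 to 10059496, plus strand), had 202, 172 and 133 CPM in mutants, against 198, 133 and 154 CPM in siblings. *fgg*, for the gamma chain (ENSDARG00000037281, chromosome 1, 25669799 to 25679383, minus strand), had 64.5, 59.4 and 46.0 CPM in mutants, against 68.2, 58.0 and 58.3 CPM in siblings. In all 3 genes the groups overlapped, mutant 1 was the highest and mutant 3 the lowest of the mutants, and sibling 1 was the highest and sibling 2 the lowest of the siblings. The ends of *fgb* and *fga* face each other across 4004 bases, with 0 other genes of the table in the gap, and *fgg* lies elsewhere on the chromosome. The log2 fold changes were -0.06 for *fga* (SE 0.15), 0.06 for *fgb* (SE 0.17) and -0.12 for *fgg* (SE 0.13), with edgeR adjusted p of 0.80, 0.82 and 0.54. Their 95% intervals ran between -0.41 and 0.29, -0.33 and 0.46, and -0.41 and 0.17 in the same order, so changes within these intervals were not excluded for these genes.

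Since the 3 chains are assembled into 1 protein, their balance within a library was also compared, which needs no scaling between libraries. The log2 ratio of *fga* to *fgb* counts was 0.28, 0.29 and 0.36 in mutants, against 0.41, 0.48 and 0.43 in siblings. The ratio was therefore lower in every mutant than in every sibling, by 0.13 on average, although neither gene was called. This gave p = 0.1 in a two-sided exact permutation test over the 6 libraries, the smallest that 3 against 3 allows, and 0.3 after Benjamini-Hochberg adjustment over the 3 chain ratios. The log2 ratio of *fga* to *fgg* averaged 1.88 ± 0.05 in mutants and 1.82 ± 0.13 in siblings (SD, n = 3 each, exact permutation p = 0.7, adjusted 0.7). For *fgb* to *fgg* it averaged 1.57 ± 0.07 in mutants and 1.38 ± 0.17 in siblings (SD, n = 3 each, exact permutation p = 0.2, adjusted 0.3). Both of these ratios overlapped between the groups. The counts of *fga* may include reads inside an intron that siblings kept more often, as given below. The part of these reads in the *fga* ratios was not tested.

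Prothrombin, the precursor of thrombin, is encoded by *f2* (ENSDARG00000036041, chromosome 7, 38750871 to 38760158, plus strand), which had 105, 116 and 92.0 CPM in mutants, against 123, 105 and 120 CPM in siblings. The groups overlapped, with 1 mutant (mutant 3) below every sibling, and the log2 fold change was -0.15 (SE 0.10, edgeR adjusted p = 0.30, 95% interval -0.38 to 0.08). *serpind1*, for the thrombin inhibitor heparin cofactor II (ENSDARG00000021208, chromosome 8, 1766206 to 1781733, plus strand), had 17.2, 16.5 and 18.1 CPM in mutants, against 17.2, 19.1 and 16.4 CPM in siblings. It had the lowest level per length of the 9 genes in both groups, and among mutants also the lowest coefficient of variation, at 4.59%, while over siblings it was 7.96%. Its log2 fold change was -0.02 (SE 0.11, edgeR adjusted p = 0.90, 95% interval -0.27 to 0.22).

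*serpinc1*, for antithrombin, the other main inhibitor of thrombin (ENSDARG00000042684, chromosome 22, 16022211 to 16028191, plus strand), was listed at 0 counts in all 6 libraries. It lies in a run of 6 neighboring genes that were all listed at 0 in every library: *eps15l1a*, *stil*, *rc3h1a*, *serpinc1*, *zbtb37* and *s1pr1*, between 15912253 and 16042243. The genes on either side of the run, *klf2a* and *dph5*, held 1115 and 357 counts over the 6 libraries. A share of 7.34% of the 25431 protein-coding genes was listed at 0 in every library. Since the zeros span adjacent genes, no level was read from them.

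Plasminogen (*plg*, ENSDARG00000023111, chromosome 20, 42688488 to 42702884, minus strand) had 98.1, 103 and 74.5 CPM in mutants, against 128, 115 and 121 CPM in siblings. All 3 mutants lay below all 3 siblings, with a gap between mutant 2 and sibling 2 that was smaller than the range within the mutants. The log2 fold change was -0.40 (SE 0.12, 95% interval -0.67 to -0.14), with an edgeR adjusted p of 0.033. This call was lost without mutant 1 (log2 fold change -0.45, adjusted p = 0.057), without sibling 1 (-0.36, adjusted p = 0.070) and without sibling 3 (-0.41, adjusted p = 0.081).

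*tfa*, for the iron carrier transferrin-a (ENSDARG00000016771, chromosome 2, 16780643 to 16794710, plus strand), had 1734, 1526 and 1205 CPM in mutants, against 1418, 1159 and 1259 CPM in siblings. It held the most counts of the 9 genes in both groups. Mutants 1 and 2 lay above every sibling and mutant 3 lay within the sibling range. The log2 fold change was 0.22 (SE 0.13, edgeR adjusted p = 0.25, 95% interval -0.08 to 0.52). The value moved with single libraries: without mutant 3 the log2 fold change was 0.35 and *tfa* was called higher (edgeR adjusted p = 0.039), while without mutant 1 it was 0.09 (adjusted p = 0.64) and without sibling 2 it was 0.13 (adjusted p = 0.56). *cp*, for the copper protein ceruloplasmin (ENSDARG00000010312, chromosome 22, 38173960 to 38199988, plus strand), had 126, 113 and 73.0 CPM in mutants, against 108, 93.5 and 106 CPM in siblings. Mutants lay on both sides of the siblings and spread more widely, with a coefficient of variation of 26.5% over mutants and 7.71% over siblings, and the log2 fold change was 0.02 (SE 0.17, edgeR adjusted p = 0.95, 95% interval -0.38 to 0.42).

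*fabp10a* (ENSDARG00000038439, chromosome 16, 52512025 to 52516915, plus strand), a gene often used as a marker of zebrafish hepatocytes, had 35.9, 40.3 and 25.9 CPM in mutants, against 226, 219 and 235 CPM in siblings. The highest mutant was far below the lowest sibling. The log2 fold change was -2.73 (SE 0.14, edgeR adjusted p = 5.6e-06, 95% interval -3.06 to -2.41). It stayed between -2.87 and -2.57 under the 14 alternatives, which include leaving out each library. *fabp10b*, a second gene of the same family, had 2.55, 2.24 and 2.57 CPM in mutants, against 3.25, 2.60 and 2.59 CPM in siblings. Every mutant lay below every sibling, mutant 3 by less than 0.1 CPM, and it was not called (log2 fold change -0.20, SE 0.23, edgeR adjusted p = 0.57).

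**Figure D2:**
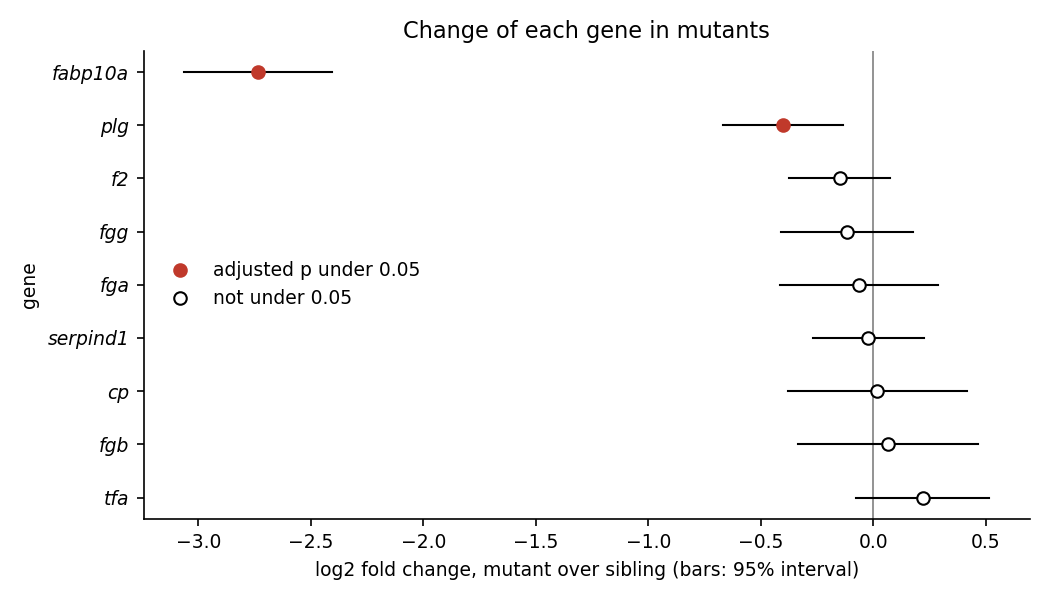
Log2 fold change of mutants over siblings for the 9 genes with counts, from the lowest at the top, with 95% intervals from the edgeR fit as bars and filled points for an adjusted p under 0.05. *fabp10a* stands at -2.73 and *plg* at -0.40, and the intervals of the other 7 genes include 0.

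Per length, the order of the genes changed at its top. In mutants *tfa* had the highest mean FPKM at 293 ± 52.4, followed by *fabp10a* at 77.6 ± 16.8, *fgb* at 73.8 ± 15.2 and *fga* at 65.7 ± 11.6 (SD, n = 3). In siblings *fabp10a* led at 518 ± 18.7, followed by *tfa* at 253 ± 28.9, *fgb* at 71.0 ± 15.5 and *fga* at 69.0 ± 13.4 FPKM (SD, n = 3). Among the mutants, the ranges of *fabp10a* and *fgb* overlapped, as did those of *fgb* and *fga*. In siblings *fabp10a* and *tfa* were each clear of the next gene, while *fgb* and *fga* overlapped. The middle of the order was held by *f2*, *cp*, *plg* and *fgg*, with means of 27.0 to 32.9 FPKM in mutants and 28.3 to 37.1 FPKM in siblings, where each overlapped its neighbor. *serpind1* came last in both groups, at 6.90 ± 0.32 FPKM in mutants and 7.04 ± 0.55 FPKM in siblings (SD, n = 3 each).

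The libraries of a group deviated together in most of the genes. Mutant 3 was the lowest mutant in 8 of the 9 genes, all but *serpind1*, and mutant 1 was the highest in 5 (*fga*, *fgb*, *fgg*, *tfa* and *cp*). Among siblings, sibling 2 was the lowest in 8 genes and sibling 1 the highest in 7. How often the same libraries were lowest or highest over all genes tested was not counted. The summed CPM of the 9 genes was 2628, 2358 and 1838 in mutants, against 2549, 2087 and 2276 in siblings. The highest mutant therefore exceeded the highest sibling, the lowest mutant lay below the lowest sibling, and most of each sum was *tfa*.

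Because of this shared spread, the other 6 genes were set against the geometric mean of the *fga*, *fgb* and *fgg* counts of the same library. The log2 ratio of *fabp10a* to fibrinogen was -2.03, -1.68 and -1.97 in mutants, against 0.57, 0.96 and 0.93 in siblings. The ratio of *plg* was -0.59, -0.33 and -0.44 in mutants, against -0.25, 0.03 and -0.03 in siblings. For *tfa* it was 3.56, 3.56 and 3.57 in mutants, against 3.22, 3.36 and 3.36 in siblings. The groups were apart in these 3 genes, by -2.71 for *fabp10a*, -0.37 for *plg* and 0.25 for *tfa*, and each had the smallest p the design allows (two-sided exact permutation p = 0.1, 0.2 after adjustment over the 6 ratios). The *tfa* ratio varied by only 0.01 (SD, n = 3) among mutants, although *tfa* itself ranged from 1205 to 1734 CPM there. The ratios of *f2*, *serpind1* and *cp* overlapped between the groups, with mean differences of -0.11, 0.02 and 0.03 (exact permutation p = 0.5, 0.9 and 0.6).

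**Figure D3:**
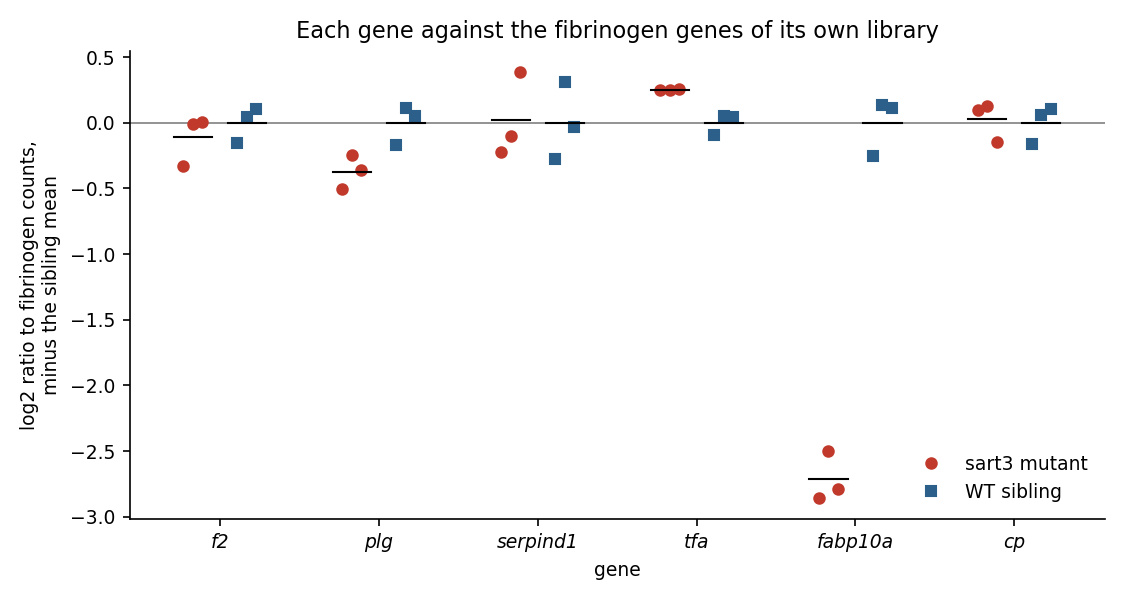
Log2 ratio of each gene's counts to the geometric mean of *fga*, *fgb* and *fgg* counts in the same library, minus the sibling mean, with mutants as circles on the left, siblings as squares on the right and group means as bars. Mutants lie below siblings for *plg* and *fabp10a* and above them for *tfa*, and the groups overlap for *f2*, *serpind1* and *cp*.

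Genes with a profile like that of fibrinogen were then sought among the 12461 tested genes, beside the 3 chains, with a mean of at least 10 CPM. Likeness was the root mean square distance between centered log2(CPM + 0.5) values over the 6 libraries, measured to the mean profile of the 3 chains. Outside the members, the nearest genes were an unnamed gene of the table at 0.05, *cdkn2aipnl* at 0.05, *gatm* at 0.06, *bhmt* at 0.06 and *fbxl3b* at 0.07. *gatm* encodes an enzyme of creatine synthesis and *bhmt* an enzyme that makes methionine from homocysteine in the liver. *bhmt* had 1645, 1568 and 1084 CPM in mutants, against 1716, 1209 and 1413 CPM in siblings, the same order of libraries as *fga*. With the chains counted in the ranks, *fga* ranked 1, *fgb* 7 and *fgg* 16 in distance. The 5 genes named above thus lay nearer to the mean profile than *fgb* and *fgg*, which are part of it. Of the other members, *cp* ranked 148, *tfa* 253, *f2* 378, *plg* 2853, *serpind1* 4592 and *fabp10a* 12375. These ranks describe 6 libraries only, 3 of each group.

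Other genes of clotting and clot lysis included both genes that fell and genes near their sibling level. Of the 33 genes of this list with enough counts, 10 were called lower (30.3%) and 2 higher, with a median log2 fold change of -0.13, beside 14.3% and 13.6% and a median of 0.01 over all genes tested. *serpinf2a*, one of a pair of genes for the plasmin inhibitor alpha-2-antiplasmin, had 13.2, 14.0 and 10.8 CPM in mutants, against 35.1, 29.8 and 33.5 CPM in siblings, a log2 fold change of -1.37 (SE 0.12, edgeR adjusted p = 0.00011). Its partner *serpinf2b* had 74.7, 63.1 and 74.8 CPM in mutants, against 76.0, 74.1 and 69.1 CPM in siblings, and was not called (log2 fold change -0.04). The protease gene *habp2* and *f7*, for the factor that starts clotting with tissue factor, fell by 1.40 and 1.39 on the log2 scale, and *prozb*, a protein Z gene, by 1.39. *f13a1b*, for a subunit of the fibrin-linking factor XIII, fell by 0.72, and *pros1* and *proca*, for the anticoagulants protein S and protein C, by 0.44 and 0.64. *proca* has 2 identifiers in the table, and the other one, at 1.79 to 3.01 CPM in mutants and 2.64 to 3.83 CPM in siblings, was not called. The 2 overlap on the same strand, and how reads that match both were counted was not tested. *lman1*, a receptor that carries clotting factors out of the endoplasmic reticulum, fell by 0.60 and *vkorc1l1*, a relative of the vitamin K recycling enzyme, by 0.59. *vkorc1l1* was not called without mutant 3 (-0.49), nor was *proca* without mutant 2, mutant 3, sibling 2 or sibling 3 (-0.70 to -0.47).

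*f7i* was also called lower (log2 fold change -1.33, SE 0.41, edgeR adjusted p = 0.043), with 3.01, 4.11 and 2.63 CPM in mutants, against 14.1, 5.09 and 5.30 CPM in siblings. Sibling 1 had the highest value, and without this library the log2 fold change was -0.67 and the call was lost. Every mutant still lay below siblings 2 and 3. The 2 genes called higher were *ggcx*, for the enzyme that carboxylates vitamin K dependent factors such as prothrombin, and *f3b*, a tissue factor gene, with log2 fold changes of 0.32 and 0.60. *ggcx* had 50.5, 50.4 and 48.2 CPM in mutants, against 38.4, 39.0 and 41.9 CPM in siblings, with no overlap. The genes for the factors that turn prothrombin into thrombin, *f10* and *f5*, had 60.7 to 69.9 and 39.5 to 42.3 CPM in mutants, against 62.5 to 72.1 and 39.3 to 44.2 CPM in siblings. Both overlapped between the groups (log2 fold changes -0.03 and -0.05). *plat*, for the tissue activator of plasminogen, had 8.10, 9.91 and 6.21 CPM in mutants, against 5.22, 4.92 and 6.76 CPM in siblings and was not called (log2 fold change 0.52, SE 0.22, edgeR adjusted p = 0.11). Of the genes for the urokinase-type activator, *plaub* overlapped between the groups (log2 fold change -0.02, edgeR adjusted p = 0.96) and *plaua* had too few counts for a test, and *cpb2*, *f9a*, *mcfd2*, *f13b* and *kng1* were listed at 0. The call of *ggcx* was lost without mutant 1 or mutant 2 (log2 fold change 0.31 each), and that of *f3b* without mutant 1 (0.57) or mutant 2 (0.51). *f7i* was also not called when any mutant was left out (-1.53 to -1.20) or with limma-voom (-1.18, adjusted p = 0.085).

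Genes for other secreted proteins of the liver were often lower. Of 38 genes tested, 18 were called lower (47.4%) and 1 higher, with a median log2 fold change of -0.35. The 18 include *tfr2*, for a receptor rather than a secreted protein, which is given below with the genes of metal handling. *ttr*, for the thyroid hormone carrier transthyretin, had 10.4, 10.1 and 6.09 CPM in mutants, against 43.5, 40.8 and 40.5 CPM in siblings, a log2 fold change of -2.23 (SE 0.18, edgeR adjusted p = 6.3e-05). The largest fall of the list was in *ahsg2*, a fetuin gene, with a log2 fold change of -4.33, at 0.36 to 0.69 CPM in mutants, against 9.13 to 11.9 CPM in siblings. *gc*, for the vitamin D carrier, fell by 1.43, *itih3b* and *itih2*, for heavy chains of inter-alpha-trypsin inhibitor, by 2.17 and 0.56, and *fetub*, for fetuin B, by 0.65. *leg1.1*, *igfbp1b* and *enpp2*, for a liver-enriched secreted protein, a binding protein of insulin-like growth factors and autotaxin, fell by 1.35, 1.51 and 0.77, and the antitrypsin relative *serpina1l* by 0.71. *fgl1*, a relative of the fibrinogen genes, had 1.12 to 1.33 CPM in mutants, against 0.90 to 1.30 CPM in siblings and was not called.

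The haptoglobin symbol *hp* belongs to 2 identifiers at separate places, ENSDARG00000095807 on chromosome 8 and ENSDARG00000051890 on chromosome 7. How the counting treated reads that match both was not tested. ENSDARG00000095807 fell to 4.54 to 8.80 CPM in mutants, against 19.0 to 22.8 CPM in siblings (log2 fold change -1.58, SE 0.22, edgeR adjusted p = 0.0011). ENSDARG00000051890, named here after its values were seen because it was the 1 gene of the list called higher, had 17, 17 and 17 counts in mutants, against 0, 0 and 3 counts in siblings.

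Enzymes and transporters of the hepatocyte were mostly lower: 34 of 41 genes tested were called lower (82.9%) and 1 higher, with a median log2 fold change of -0.73. *tat* and *hpda*, for the first steps of tyrosine breakdown, fell by 2.67 and 1.88 on the log2 scale. *tat* had 3.88, 4.67 and 4.42 CPM in mutants, against 26.5, 29.8 and 26.5 CPM in siblings. *cth*, for an enzyme of cysteine synthesis, fell by 0.99, *haao*, of tryptophan breakdown, by 1.08, *dhdhl* by 1.02 and the transporter gene *abcb4* by 1.55. The summed CPM of this list was 3771 to 4580 in mutants and 5694 to 6428 in siblings, which did not overlap, and that of the secreted proteins was 3021 to 3598 in mutants and 4305 to 4609 in siblings. The gene called higher, *pygl*, for liver glycogen phosphorylase, was named after its values were seen (log2 fold change 0.62).

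**Figure D4:**
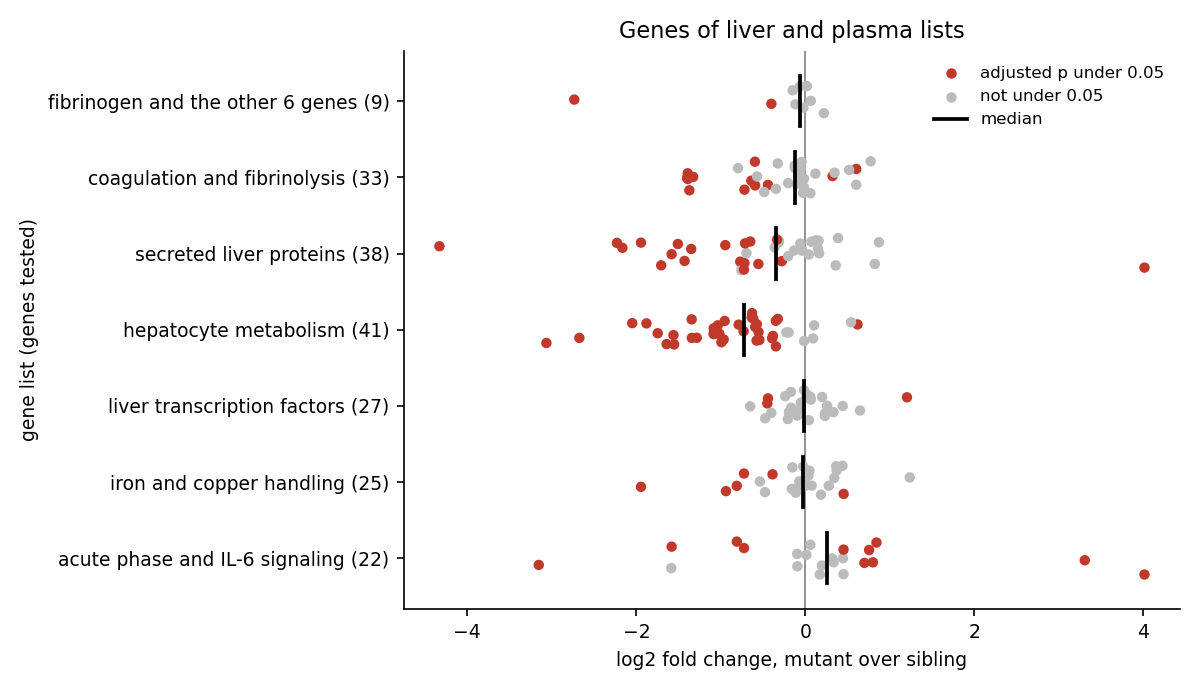
Log2 fold change of mutants over siblings for each tested gene of 7 lists, 1 point a gene, with red points for an adjusted p under 0.05 and a black bar at the median of each list. The medians lie at -0.06 for the 9 genes of the top line, -0.13 for clotting, -0.35 for secreted proteins and -0.73 for hepatocyte metabolism.

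Among 27 genes tested for liver transcription factors and their partners, 2 were called lower (7.41%) and 1 higher (3.70%), with a median log2 fold change of -0.02. Both shares are under the 14.3% and 13.6% of all genes tested. The RNA came from whole embryos, and the part of the liver in the values of this list was not tested. *cebpa*, which drives hepatocyte genes, had 53.1, 55.8 and 61.0 CPM in mutants, against 85.8, 78.7 and 67.7 CPM in siblings (log2 fold change -0.45, SE 0.10, edgeR adjusted p = 0.011). *foxa2* was lower by the test (log2 fold change -0.44, edgeR adjusted p = 0.043), a call that was lost under DESeq2, with every gene with a count tested, and without any 1 library but sibling 3 (-0.46 to -0.38). The fatty acid sensor *pparab* was higher, at 7.29, 5.92 and 6.39 CPM in mutants, against 1.57, 3.28 and 3.66 CPM in siblings, but not called without mutant 1 (log2 fold change 1.12). *prox1a* overlapped between the groups, with a log2 fold change of -0.05. *hnf4a*, a defining regulator of hepatocytes, had 1 to 13 counts in mutants and 1 to 5 counts in siblings, too few for a test.

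Of the 9 hepatocyte markers fixed for these libraries, 8 were tested and 4 were called lower, *fabp10a*, *ttr*, *serpina1* and *cebpa*. The other 4, *tfa*, *fga*, *fgb* and *fgg*, were not called. The hepatocyte markers thus did not move as 1 block, and *hnf4a* had too few counts for a test in either direction. Whether those few counts reflect its level in the embryos was not tested.

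Of 25 genes tested that handle the metals carried by *tfa* and *cp*, 5 were called lower (20.0%) and 1 higher (4.0%). Their median log2 fold change was -0.02. The shares over all genes tested were 14.3% lower and 13.6% higher. *hamp*, for hepcidin, the liver hormone that limits iron export, had 12.8, 12.3 and 16.6 CPM in mutants, against 26.3, 19.8 and 22.9 CPM in siblings (log2 fold change -0.73, SE 0.15, edgeR adjusted p = 0.0090). *tfr2*, for the transferrin receptor by which hepatocytes sense iron, fell by 1.94 on the log2 scale, to 1.17 ± 0.29 CPM in mutants, against 4.54 ± 0.42 CPM in siblings (SD, n = 3 each), with no overlap. The receptors that take up transferrin, *tfr1a* and *tfr1b*, were not called (log2 fold changes 0.44 and -0.11). Of the copper pumps, *atp7b*, which loads ceruloplasmin in the liver of mammals, fell by 0.81 and *atp7a* rose by 0.45. *commd1*, of copper export, and the iron importer *slc11a2* fell by 0.94 and 0.39. The call of *atp7a* was lost without mutant 2 (0.38), that of *atp7b* without mutant 1 (-0.65) or sibling 3 (-0.80), and that of *slc11a2* without any 1 library but sibling 2 (-0.45 to -0.25).

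Fibrinogen is an acute phase protein, made in larger amounts when interleukin-6 signals through Stat3. Of 22 genes tested for this response, 7 were called higher (31.8%) and 4 lower (18.2%), with a median log2 fold change of 0.26. Over all genes tested, 13.6% were called higher and 14.3% lower. The largest rise of the list, by 4.01, was in the *hp* identifier ENSDARG00000051890, at the few counts given above. *stat3* had 65.9, 68.2 and 59.5 CPM in mutants, against 30.0, 41.4 and 36.6 CPM in siblings (log2 fold change 0.84, SE 0.12, edgeR adjusted p = 0.0012). The signaling receptor chain *il6st* rose by 0.70, the feedback inhibitor *socs3b* by 0.75 and *nfkbiaa*, an inhibitor of NF-kB, by 0.80. The acute phase product *crp*, for C-reactive protein, fell by 3.15, to 0.18 to 0.35 CPM in mutants, against 1.75 to 2.88 CPM in siblings. The other *hp* identifier, ENSDARG00000095807, and *hamp* were also called lower (log2 fold changes -1.58 and -0.73). None of the 3 fibrinogen genes was called in either direction, as given above. In which tissue of the embryo the genes of this list changed was not tested.

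Marker lists of other tissues differed in how far they moved, beside 14.3% of all genes tested called lower and 13.6% higher. Of 12 genes tested for the yolk syncytial layer, 4 were called lower (*mttp*, *apoa4b.1*, *pla2g12b* and *apoc2*) and 1 higher (*fgfr4*), and the summed CPM of the list was 5030 to 5762 in mutants and 5796 to 6103 in siblings, with *mxtx2* listed at 0. All 15 pancreas genes tested were lower, with a sum of 102 to 129 CPM in mutants and 5061 to 5391 CPM in siblings. Of 15 intestine genes, 13 were lower and 1 higher, at 1407 to 1443 CPM in mutants and 3040 to 3587 CPM in siblings. The list written for thrombocytes had 2 of 8 genes higher, *itgb3b* and *fli1a*, of which *fli1a* is not particular to thrombocytes. The sums of this list were 70.4 to 82.2 CPM in mutants and 58.3 to 61.4 CPM in siblings. Of 15 endothelial markers *tek* alone was called, lower, with sums of 268 to 280 CPM in mutants and 255 to 280 CPM in siblings. Without 1 library, calls were lost for *tek* (mutant 2, mutant 3 or sibling 3, -0.48 to -0.39), *fli1a* (mutant 2, sibling 2 or sibling 3, 0.24 to 0.30), *itgb3b* (any but mutant 3, 0.44 to 0.57), *pla2g12b* (mutant 2, mutant 3, sibling 1 or sibling 3, -0.36 to -0.23) and *apoc2* (any but sibling 2, -0.54 to -0.32). The part of these tissues in the values of the liver genes was not tested.

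Finally, the members were looked up among 2075 alternative splicing events that the authors called with rMATS and deposited with read counts. Of the 9 members tested, 2 had an event, *fga* and *tfa*, with 1 each, beside 6.22% of all 24809 genes tested with at least 1 event. As the tables hold only called events, the values are given as a description, and nothing is read from this count about the members as a group. The libraries are not named within a group there, so the values have no replicate number, and the group listed first in the tables was read as the mutants.

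The event of *fga* was the retention of an intron of 220 bases (GRCz11 chromosome 1, 10066968 to 10067187, minus strand) between exons at 10066100 to 10066967 and 10067188 to 10068046. Its inclusion level, the share of transcripts that keep the intron after correction for length, was 0.37, 0.37 and 0.38 in mutants, against 0.60, 0.66 and 0.59 in siblings. The intron was kept less often in every mutant library than in every sibling library, by 0.25 on average. Reads that support the kept intron were 59.0%, 59.5% and 60.0% of 958, 880 and 662 reads of the event in mutants. In siblings they were 79.1%, 82.9% and 77.9% of 1303, 959 and 1065. The lengths used in the correction were 369 bases with the intron and 149 without. The reads thus appear to include those inside the intron, not only those across junctions. The 95% Wilson intervals, which cover counting error only, reached up to 63.6% at most in mutants and down to 75.3% at least in siblings. The *fga* gene as a whole was not called, as given above. Whether its counts include the reads inside the intron was not tested.

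The event of *tfa* was a pair of mutually exclusive exons on the plus strand of chromosome 2, one of 24 bases (16787668 to 16787691) and one of 162 bases (16789069 to 16789230). The inclusion level of the 24-base exon was 0.33, 0.34 and 0.42 in mutants, against 0.21, 0.24 and 0.25 in siblings. The shorter exon was used more often in every mutant library, by 0.13 on average, and the longer exon remained the more used one in all 6 libraries. Reads that support the 24-base exon were 21.5% to 28.5% of 3517 to 5542 reads of the event in mutants. In siblings they were at most 15.8% of 3709 to 4808. Wilson intervals ran from 20.5% upward in mutants and up to 16.9% in siblings.

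**Figure D5:**
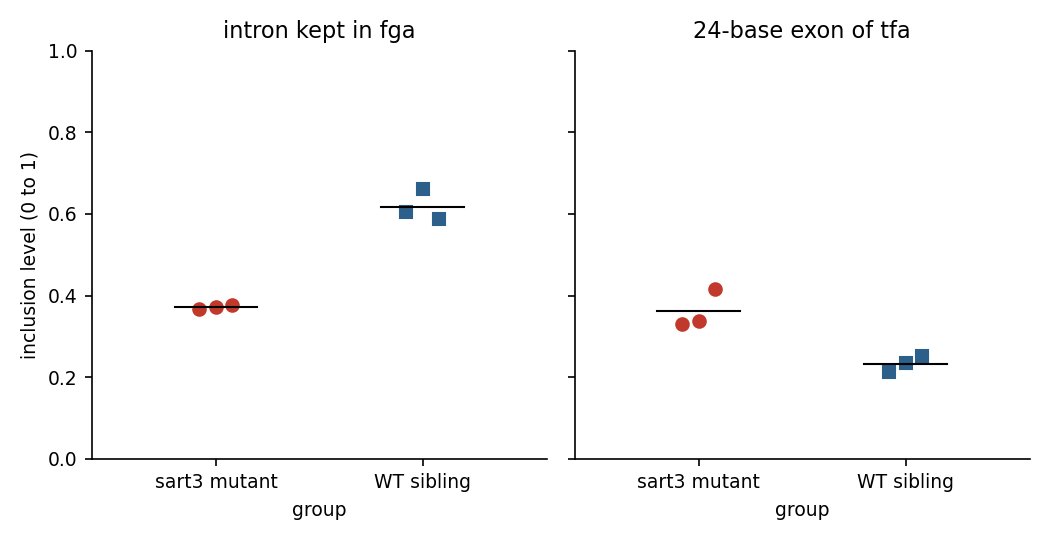
Inclusion level (0 to 1) in each library of the *fga* intron on the left and of the 24-base *tfa* exon on the right, with mutants as circles, siblings as squares and group means as bars. Mutants lie at 0.37 to 0.38 and siblings at 0.59 to 0.66 for the *fga* intron, and mutants at 0.33 to 0.42 and siblings at 0.21 to 0.25 for the *tfa* exon.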

How the data were processed

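Per the labels, RNA of whole embryos at 4 dpf was sequenced from 3 *sart3*-/- and 3 WT sibling libraries made with the NEBNext Ultra kit. The submitters' processing notes name HISAT2 2.0.5, featureCounts 1.5.0-p3 and GRCz11. The authors deposited counts per gene without normalization, the FPKM they made from each count, and the rMATS events they called significant. The events came with read counts and with inclusion levels as fractions per library. Packed read counts of both member events were split with the deposited inclusion levels. The group listed first was read as mutants from the order in the tables' title, and *mdm4* inclusion averaged 0.124 in it and 0.977 in the other. The authors' p-values and fold changes were not used.

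Counts were tested with edgeR 4.0.16 in R 4.3.3 (filterByExpr, TMM, quasi-likelihood test, Benjamini-Hochberg adjustment over 24809 genes). Alternatives were DESeq2 1.42.0, limma-voom 3.58.1, other scalings and filters, a replicate block, each library left out, and a limit of 1 on the size of the log2 fold change. On simulated data edgeR recovered 77 of 100 genes changed 2-fold and 100 of 100 changed 4-fold, and called 12 unchanged genes of 24536 in that step. The simulation gave every gene the same spread (dispersion 0.0274) and no deviations shared by the genes of a library. It therefore does not give the power for genes that vary more than this. The remaining steps used Python 3.11.15, scipy 1.17.1 and matplotlib 3.10.9. The ratio test was planned for 7 genes, of which *serpinc1* had no count.

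The members and lists were chosen with earlier results of these data known, and lists were written from memory. Named genes are the members, *sart3*, up to 6 called genes of each list with the smallest adjusted p (12 for clotting and for secreted proteins), genes whose role pairs with a member, and the 5 genes nearest to fibrinogen. Of these, pancreas and intestine genes are given as sums. Promoter and protein sequences were not used here.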

Additional observations from a re-analysis of the deposited data

How the results depend on the processing

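With 3 libraries a group, changes within a gene's interval were not excluded for that gene, and the exact tests could not go under p = 0.1. Among the named genes followed through the alternatives, none that had been called changed direction. *pygl*, *serpina1* and the *hp* identifier ENSDARG00000051890 were not followed through them. *fabp10a* was called lower under all 14 alternatives. Adding a limit of 1 on the size of the log2 fold change left 2063 genes called of 6924, and 1 member, 5 clotting genes, 10 secreted proteins, 16 genes of hepatocyte metabolism, 1 liver transcription factor, 1 gene of metal handling, 4 of the acute phase, 0 thrombocyte, 0 endothelial, 0 yolk syncytial layer and 7 intestine genes. Leaving out each library in turn gave 1 to 3 members called, 1 to 3 liver transcription factors, 0 to 2 thrombocyte genes, 0 to 2 endothelial genes and 3 to 5 yolk syncytial layer genes. Thrombocyte genes called were 1 with DESeq2 and 0 with every gene with a count tested. Set against *fgb* alone, the log2 ratio of *tfa* differed by 0.14 and the groups were no longer apart, as mutant 1 lay below sibling 2. Without correction for length, the *fga* intron share differed by -0.20, an alternative chosen after seeing the data. Replicate numbers were not said to pair the libraries, and deviations of same-numbered libraries correlated at 0.06, 0.03 and -0.11. With a replicate block edgeR called 5941 genes, the same 2 members and 0 thrombocyte genes, and the calls of *foxa2*, *proca*, *f7i*, *fli1a*, *itgb3b* and *apoc2* were lost.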
